A study of Homo sapiens with 4 samples.

Results

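Keratin transcripts were compared among RKN, SKLMS1, SKN and SKUT1, 4 cultured cell lines of human leiomyosarcoma, a cancer of the smooth muscle lineage. Members were all gene symbols of the table made of KRT, a number and at most 1 closing letter, which took 56 of 23577 genes. They comprised 29 type I keratins, 26 type II keratins and the pseudogene KRT42P, which the symbol rule also matches. Each line gave 1 poly(A) RNA library from an untreated culture in medium with 10% serum, and passage and tumour site were not given in the sources used here. Levels are FPKM, fragment counts divided by transcript length and by library size, so they can be set side by side between genes. With 1 library per line, differences are sizes without a test or replicate check. RNA came from whole cultures, so fewer expressing cells and less RNA per cell cannot be told apart.

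Keratins are the intermediate filament proteins of epithelial cells. A filament forms only from a type I chain paired with a type II chain, and particular pairs mark particular epithelia: KRT8 with KRT18 in simple epithelium, KRT5 with KRT14 in the basal layer of stratified epithelium, KRT1 with KRT10 above it. Muscle and fibroblast lineages mainly use other filament proteins, vimentin and desmin, although KRT8 and KRT18 are known in some smooth muscle cells and smooth muscle tumours.

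Most keratin genes had little or no listed signal, and a small set was abundant. An FPKM of 1 was reached somewhere by 17 of the 56, namely 12 of 29 type I and 5 of 26 type II genes. Over the whole table, 13713 of 23577 genes reached it. The other 39 keratins stayed below 1 in every line, and 15 of these were listed at 0 throughout. KRT13 at 1.27 was the lowest maximum inside that limit and KRT86 at 0.912 the highest outside it. Levels of 10 or more were reached by 11 genes and levels of 100 or more by 6, which were KRT7, KRT8, KRT14, KRT18, KRT19 and KRT81. The number at 1 or more was 9 of 56 for RKN (16.1%), 10 for SKLMS1 (17.9%), 8 for SKN (14.3%) and 13 for SKUT1 (23.2%). Over all 23577 genes the shares were 48.6%, 49.8%, 48.7% and 48.9%. KRT10, KRT15, KRT18, KRT8 and KRT80 were the 5 genes at 1 or more in all 4 lines.

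Summed keratin FPKM was 112 (RKN), 583 (SKLMS1), 708 (SKN) and 992 (SKUT1), or 0.025%, 0.118%, 0.132% and 0.160% of each column's sum. RKN held the least, and SKUT1 exceeded it 8.88 times, or 6.41 times after columns were rescaled to equal sums. Vimentin stood above the keratins in every line. VIM, the vimentin gene, was 2554 (RKN), 3053 (SKLMS1), 5162 (SKN) and 3472 (SKUT1), between 3.50 times (SKUT1) and 22.9 times (RKN) the summed keratin level.

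**Figure D1:**
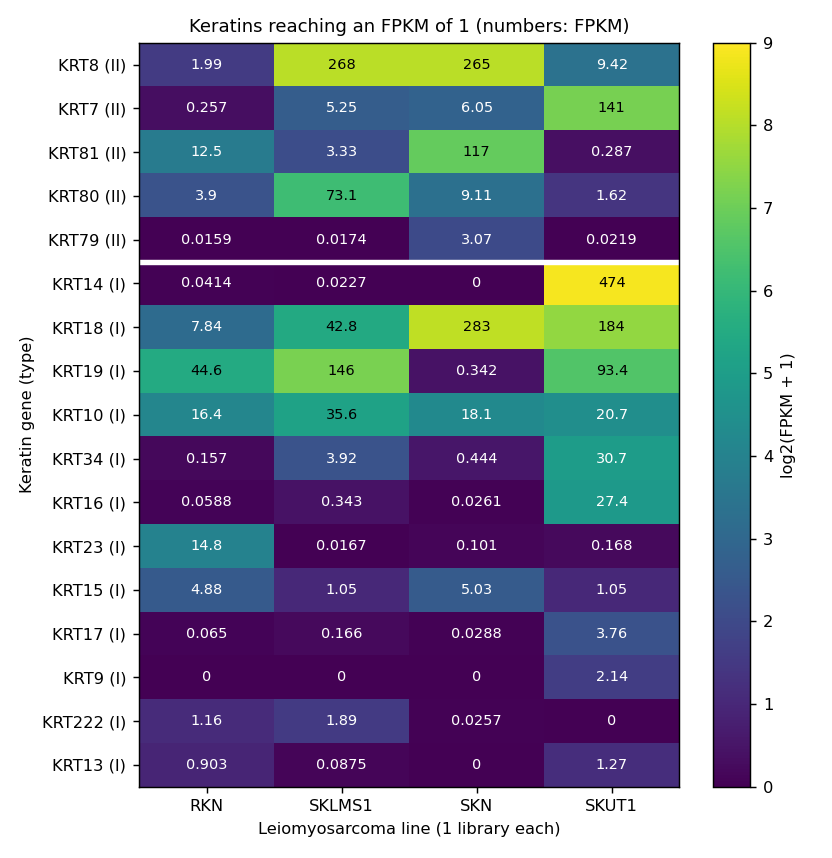
FPKM of the 17 keratins that reached 1 in at least 1 line (rows, type II above the white line, type I below) in the 4 leiomyosarcoma lines (columns, 1 library each). Colour gives log2(FPKM + 1) and the number in each cell is the FPKM; KRT14 at 474 is the highest cell and is at most 0.0414 in the other lines.

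The balance of the types differed between lines. In RKN the type I genes summed to 92.5 and the type II genes to 19.2, a ratio of 4.82. SKLMS1 had 233 and 351, a ratio of 0.664, and SKN had 308 and 401, a ratio of 0.768. SKUT1 had 840 and 152, a ratio of 5.51. Thus RKN and SKUT1 carried a surplus of type I transcripts, while type II was somewhat ahead in SKLMS1 and SKN. A ratio within a line does not change with the scaling of its column. The order of the types in SKLMS1 and SKN turned when a few genes were left out: the ratio was 1.05 in SKLMS1 without KRT19 and KRT8, and 1.08 in SKN without hair and nail keratins. In SKUT1 it was 2.40 without KRT14, still on the type I side.

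The leading gene of each type also changed from line to line. KRT19 led type I in RKN with 48.2% of the type I sum and in SKLMS1 with 62.5%, KRT18 led in SKN with 92.1%, and KRT14 led in SKUT1 with 56.4%. Type II was led by KRT81 in RKN (65.0%), by KRT8 in SKLMS1 (76.3%) and SKN (66.1%), and by KRT7 in SKUT1 (92.4%). Without KRT7, the remaining type II genes of SKUT1 summed to 11.5.

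**Figure D2:**
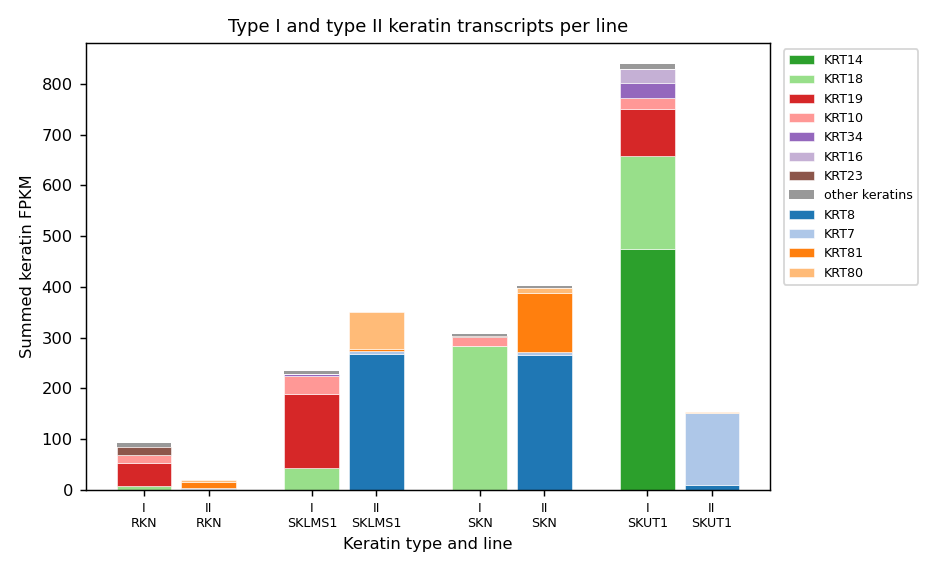
Summed FPKM of type I and type II keratins in each line, stacked by gene for the 11 genes that reached 10 in some line, with the rest in grey. Type I exceeds type II in RKN (92.5 and 19.2) and SKUT1 (840 and 152), and type II is ahead in SKLMS1 (233 and 351) and SKN (308 and 401).

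The keratins of simple epithelium, KRT7, KRT8, KRT18, KRT19 and KRT20, made up 49.0% of keratin FPKM (RKN), 79.0% (SKLMS1), 78.3% (SKN) and 43.1% (SKUT1). KRT8, the type II chain of the earliest and most widespread keratin pair, was 1.99 (RKN), 268 (SKLMS1), 265 (SKN) and 9.42 (SKUT1). SKLMS1 and SKN formed a high pair, with SKN 28.1-fold above SKUT1, the next line. KRT18, its type I partner, was 7.84 (RKN), 42.8 (SKLMS1), 283 (SKN) and 184 (SKUT1). Only RKN was low for both chains.

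KRT8 and KRT18 lie next to each other, yet their transcripts matched in a single line. SKN had a KRT8 to KRT18 ratio of 0.935, and the pair held 77.4% of its keratin FPKM. In SKLMS1 KRT8 exceeded KRT18 6.26-fold. In SKUT1 KRT18 exceeded KRT8 19.6-fold, and in RKN 3.93-fold. Both genes have many processed pseudogenes. Of all windows of 75 bases, the length of a read, 20.0% in the KRT8 transcript and 5.85% in the KRT18 transcript occur unchanged in another gene's transcript in GENCODE release 29. The genes also overlap on opposite strands there. How far either fact moved the ratio was not tested.

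KRT19, a type I keratin without the usual tail domain and typical of ducts, was 44.6 (RKN), 146 (SKLMS1), 0.342 (SKN) and 93.4 (SKUT1). It was the one keratin at least 4-fold lower in SKN than in every other line. KRT7, a type II keratin of glands and ducts that often accompanies KRT19, was 0.257 (RKN), 5.25 (SKLMS1), 6.05 (SKN) and 141 (SKUT1). The 2 genes did not go together: KRT19 exceeded KRT7 27.7-fold in SKLMS1, KRT7 was 1.51 times KRT19 in SKUT1, RKN had KRT19 with KRT7 below 1, and SKN the reverse. KRT20, the keratin of intestinal epithelium, was 0.0556 in RKN and listed at 0 in the other lines. No 75-base window of KRT7 or KRT19 occurs in another gene, although KRT7 overlaps KRT86 on the same strand in GENCODE release 29.

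**Figure D3:**
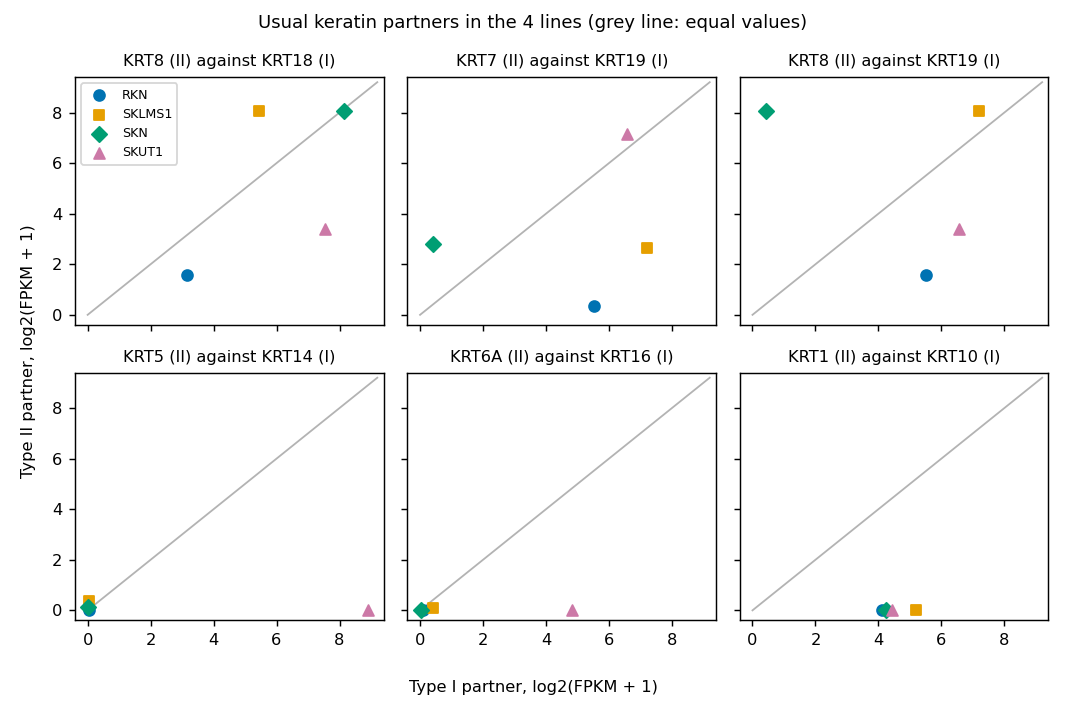
Type II against type I partner for 6 usual pairs, both axes as log2(FPKM + 1), with 1 point per line and the grey line marking equal values. SKN lies on the line for KRT8 and KRT18 (265 and 283), whereas SKUT1 lies along the bottom, to the right of the other lines, in the panels for KRT14 (474) and KRT16 (27.4), with their type II partners listed at 0.

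KRT14, KRT16 and KRT17, a basal and a pair of stress keratins of type I, were higher in SKUT1 than in every other line. KRT14, the type I chain of basal keratinocytes, was 0.0414 in RKN, 0.0227 in SKLMS1, listed at 0 in SKN and 474 in SKUT1, where it ranked 193rd of all genes and held 47.8% of keratin FPKM. KRT16, a type I keratin induced in wounded and hyperproliferative epidermis, was 0.0588, 0.343, 0.0261 and 27.4 in the same order of lines. KRT17, which shares that setting and that of skin appendages, was 0.0650, 0.166, 0.0288 and 3.76. All 3 genes were near 0 outside SKUT1.

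Their type II partners were low or listed at 0. KRT5, the partner of KRT14, was listed at 0 in RKN and SKUT1 and was 0.294 in SKLMS1 and 0.0938 in SKN. KRT6A, a partner of KRT16, was 0.0723 in SKLMS1 and listed at 0 elsewhere, and KRT6B and KRT6C were listed at 0 in all lines. An exact 0 in this kind of table can be a failed estimate: RPS28, a ribosomal protein gene every cell needs, was listed at 0 in SKUT1 and at 0.370 in SKLMS1. As listed, KRT7, KRT8 and KRT80 were the type II keratins of SKUT1 at 1 or more. KRT15, another type I basal keratin, followed a different order, with 4.88 (RKN), 1.05 (SKLMS1), 5.03 (SKN) and 1.05 (SKUT1).

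KRT14, KRT16 and KRT17 are close relatives, so the stretch where KRT14 and KRT16 cannot be told apart is shown, with the matching stretch of KRT17. Each is 75 bases, the read length, of coding sequence in exon 1 (GENCODE release 29, GRCh38, minus strand), at chr17:41586368-41586442 for KRT14, chr17:41612216-41612290 for KRT16 and chr17:41624136-41624210 for KRT17. Capitals mark bases that differ from KRT14.
KRT14: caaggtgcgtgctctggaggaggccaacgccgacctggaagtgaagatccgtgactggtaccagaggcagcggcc
KRT16: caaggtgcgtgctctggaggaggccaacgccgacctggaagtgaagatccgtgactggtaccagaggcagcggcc
KRT17: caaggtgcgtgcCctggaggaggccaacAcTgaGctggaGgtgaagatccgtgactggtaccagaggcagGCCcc

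This stretch closes a run of 158 identical coding bases in KRT14 and KRT16, and KRT17 differs in it at 8 positions. KRT16 shares 5.35% of its 75-base windows with KRT14, and KRT16 in SKUT1 was 5.79% of KRT14. Counting every other gene, 9.68% of KRT16 windows and 10.0% of KRT14 windows are shared, KRT16P3 coming first for KRT16 (5.92%). How many KRT16 reads came from KRT14 was not tested. KRT17 shares no 75-base window with either, the longest common run being 59 bases with KRT14 and 61 with KRT16, and 4.19% of its windows occur in other genes, KRT17P3 first among them.

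The low values resolved into steps that show how thin the signal outside SKUT1 was. Across lines, most low values of a gene were multiples of 1 step, and from the most frequent ratio of low values a step was worth 1.095 times as much in SKLMS1 as in RKN, 1.329 times in SKN and 1.378 times in SKUT1. That ratio was met by 155 of 901 low genes in SKLMS1 (17.2%), 142 of 778 in SKN (18.3%) and 131 of 727 in SKUT1 (18%). If 1 step is 1 read and columns were scaled by read number alone, SKLMS1, SKN and SKUT1 had 91.3%, 75.3% and 72.6% of the depth of RKN. Whether the columns were scaled in that way was not tested. KRT14 then stood at 2 steps in RKN and 1 in SKLMS1, KRT16 at 3, 16 and 1 steps in RKN, SKLMS1 and SKN, and KRT17 at 3, 7 and 1. In SKUT1 KRT16 stood at 1015 steps and KRT17 at 126. Of 27 low keratin values under 10 steps that could be compared with the smallest value of their gene, 23 were whole multiples within 0.02, with the smallest value taken as 1 step.

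Hair and nail keratins, the hard keratins of cornified appendages, stayed below 1 with 2 exceptions among 17 genes. KRT81, a type II hair cortex keratin, was 12.5 (RKN), 3.33 (SKLMS1), 117 (SKN) and 0.287 (SKUT1). SKN exceeded RKN, the next line, by 3.13 on the log2(FPKM + 1) scale, and SKUT1 was lowest. KRT34, a type I hair keratin, was 0.157 (RKN), 3.92 (SKLMS1), 0.444 (SKN) and 30.7 (SKUT1), which exceeded SKLMS1 by 2.69 on that scale. The lines high in the type II hair keratin were thus not those high in the type I one. The remaining 15 stayed at 0.912 or less, the highest being KRT86 in SKLMS1.

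KRT81 and KRT86 are near copies on opposite strands, and the last 75 bases of their longest identical run are shown because reads from them fit both genes. The stretch joins exons 3 and 4 of KRT81 (chr12:52288431-52289263, minus strand, intron included) and exons 5 and 6 of KRT86 (chr12:52304123-52304957, plus strand, intron included), again on GRCh38.
KRT81: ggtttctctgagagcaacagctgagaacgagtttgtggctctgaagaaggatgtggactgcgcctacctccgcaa
KRT86: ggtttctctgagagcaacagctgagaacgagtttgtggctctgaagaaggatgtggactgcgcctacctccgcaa

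The identical run is 605 bases long, and KRT81 shares 33.0% of its 75-base windows with KRT86. The listed levels of KRT86 were nonetheless low: 0.424 (RKN), 0.912 (SKLMS1), 0.0835 (SKN) and 0.130 (SKUT1). In SKN, where KRT81 was 117, KRT86 was thus at 0.0835. The 4 KRT86 values were 6.75, 13.25, 1 and 1.5 times the smallest, once put on the step scale, so they were not whole multiples of it, unlike those of most low keratins. KRT34 shares 3.82% of its windows with KRT31, KRT33A and KRT33B, and its values too were not whole multiples (22.75, 2.12 and 141.75 times the RKN value in SKLMS1, SKN and SKUT1). For both genes the smallest value was only taken as 1 step and may itself stand for several reads. Whether shared reads had a part in these multiples was not tested.

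Keratins of suprabasal, mucosal and corneal epithelium were led by KRT10. KRT10, the type I chain of differentiating epidermis, was 16.4 (RKN), 35.6 (SKLMS1), 18.1 (SKN) and 20.7 (SKUT1). It varied least of the 17 genes, 2.17-fold from lowest to highest. Its type II partner KRT1 was listed at 0 in all lines, and KRT2 was 0.0178 in SKN and listed at 0 elsewhere. TMEM99 overlaps KRT10 on the opposite strand, and the strand setting of the quantification is not given in the sources used here.

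KRT79, a type II keratin of sebaceous and hair follicle ducts, was 3.07 in SKN against 0.0159 in RKN, 0.0174 in SKLMS1 and 0.0219 in SKUT1, or 145 steps against 1 in each of the others. KRT9, the type I keratin of palm and sole skin, was 2.14 in SKUT1 and listed at 0 elsewhere. KRT13, of mucosal epithelium, was 0.903 in RKN, 0.0875 in SKLMS1, listed at 0 in SKN and 1.27 in SKUT1. The other 9 genes of the group stayed at 0.501 or less, the highest being KRT78 in SKN. None of the 9 keratins of the hair follicle sheath passed 0.144, the level of KRT75 in SKN, and 7 of them were listed at 0 in all lines.

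Among the remaining genes, KRT80, a type II keratin of many epithelia, was 3.90 (RKN), 73.1 (SKLMS1), 9.11 (SKN) and 1.62 (SKUT1). SKLMS1 exceeded SKN, the next line, by 2.87 on the log2(FPKM + 1) scale. KRT23, an acidic type I keratin, was 14.8 (RKN), 0.0167 (SKLMS1), 0.101 (SKN) and 0.168 (SKUT1), which is 971 steps in RKN and 1, 5 and 8 in the others. KRT222, a divergent type I member, was 1.16 in RKN, 1.89 in SKLMS1, 0.0257 in SKN and listed at 0 in SKUT1. It shares 57.1% of its 75-base windows with the gene AC073508.2, which overlaps it on the same strand. KRT42P was at most 0.0154.

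Across the 16 usual pairs of a type II with a type I keratin that were listed, both partners reached 1 together in 9 of 64 combinations of pair and line. All 9 belonged to KRT8 with KRT18, KRT8 with KRT19 or KRT7 with KRT19. The other 13 pairs never had both partners at 1 in a line. KRT9, KRT10, KRT13, KRT14, KRT15, KRT16, KRT17 and KRT81 thus reached 1 with no listed partner at 1 beside them. KRT23, KRT34, KRT79, KRT80 and KRT222 were in no listed pair.

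Counts of keratins at least 4-fold apart (2 on the log2(FPKM + 1) scale) were taken for each pair of lines, beside the same share of all genes. RKN and SKLMS1 differed in 6 of 56 keratins (10.7%, all genes 5.69%), with KRT23 higher in RKN and KRT7, KRT8, KRT18, KRT34 and KRT80 in SKLMS1. RKN and SKN differed in 7 (12.5%, all genes 5.61%), with KRT19 and KRT23 higher in RKN and KRT7, KRT8, KRT18, KRT79 and KRT81 in SKN. KRT79 dropped out under median-of-ratios scaling. RKN and SKUT1 differed in 8 (14.3%, all genes 8.85%), SKLMS1 and SKUT1 in 8 (14.3%, all genes 7.02%), and SKN and SKUT1 in 8 (14.3%, all genes 7.03%). SKLMS1 and SKN differed in 4 (7.14%, all genes 4.60%), KRT19 and KRT80 being higher in SKLMS1 and KRT18 and KRT81 in SKN.

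In each of the 3 pairs with SKUT1, 6 keratins were higher in SKUT1 and 2 lower. KRT7, KRT14, KRT16, KRT17 and KRT34 were higher in SKUT1 in all 3, joined by KRT18 against RKN and SKLMS1 and by KRT19 against SKN. KRT18 dropped out against SKLMS1 under equal column sums and quantile normalization. With equal sums, 6 were higher in SKUT1 and 4 lower against SKLMS1, and 7 higher and 4 lower against SKN. The common sum lay above each column's own (446954 in RKN to 619584 in SKUT1), so the added 1 also weighed less. The comparisons with SKUT1 share its library.

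Set against the highest or lowest of the other 3 lines, 5 of 56 keratins were highest in SKUT1 by at least 4-fold (8.93%, all genes 2.36%): KRT7, KRT14, KRT16, KRT17 and KRT34. In each other line 1 keratin was highest, KRT23 in RKN (1.79%, all genes 0.797%), KRT80 in SKLMS1 (1.79%, all genes 0.772%) and KRT81 in SKN (1.79%, all genes 0.780%). KRT7 and KRT18 were lowest in RKN (3.57%, all genes 0.959%) and KRT19 in SKN (1.79%, all genes 0.339%). No keratin was lowest in SKLMS1 (all genes 0.178%) or SKUT1 (all genes 0.479%). These calls held under equal column sums, median-of-ratios scaling and quantile normalization. Equal sums added KRT9 to the highest in SKUT1, KRT79 to the highest in SKN and KRT81 to the lowest in SKUT1. Because the common sum lay above each column's own, the added 1 weighed less there. Its part in these additions was not tested. Quantile normalization likewise added KRT79 in SKN. The 8-fold rule left 3 keratins highest in SKUT1.

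The human keratin genes sit in clusters on chromosomes 12 and 17, and the genes at 1 or more were unevenly placed in them. On chromosome 12, which holds 27 members in RefSeq's order, the 6 genes that reached 1 lay at the ends: KRT80, KRT7 and KRT81 among the first 4, and KRT79, KRT8 and KRT18 among the last 4. Between them, a run of 19 neighbouring members from KRT83 to KRT4 stayed below 1 in every line. KRT78, between KRT79 and KRT8, was highest in SKN like KRT79, at 0.501.

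On chromosome 17, with 29 members, 11 reached 1. In SKUT1, 7 neighbours in a row were at 1 or more, KRT13, KRT15, KRT19, KRT9, KRT14, KRT16 and KRT17. KRT15 (1.05), KRT13 (1.27) and KRT9 (2.14) were little above that limit. KRT15 was higher in RKN (4.88) and SKN (5.03), and KRT13 was 0.903 in RKN. The same stretch held 2 genes at 1 or more, KRT15 and KRT19, in RKN and in SKLMS1, and KRT15 alone in SKN. KRT222, KRT10, KRT23 and KRT34 stood alone among lower neighbours.

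**Figure D4:**
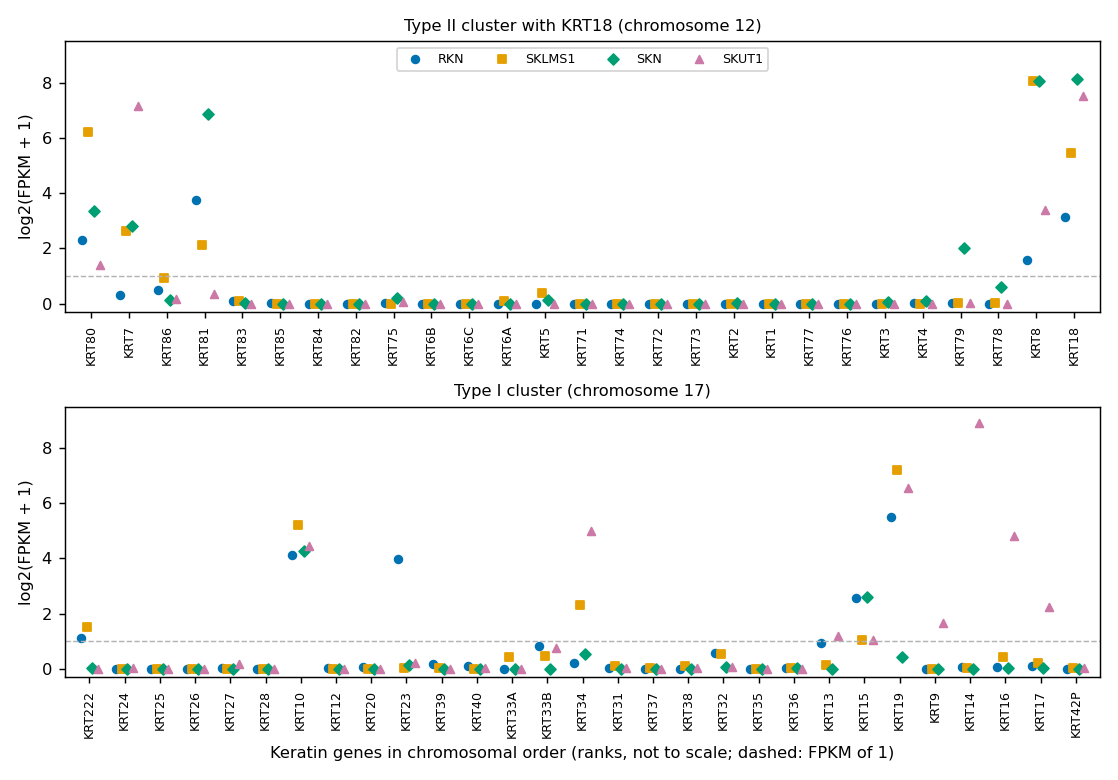
Log2(FPKM + 1) of every keratin in chromosomal order (ranks, not distances), with 1 point per line and the dashed line at an FPKM of 1. On chromosome 12 signal lies at both ends around 19 members below 1. On chromosome 17 the run from KRT13 to KRT17 is at 1 or more in SKUT1, with KRT13, KRT15 and KRT9 at most 2.14.

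Promoter sequence was at hand for 34 of the 56 keratins in RefSeq's promoter table (GRCh38.p14), 5 of them among the 17 that reached 1. A TATA box (TATAAA, either strand, within 250 bases before the start) was found in 21 of 34 keratin genes (61.8%) and in 13.0% of all 27305 genes of the table, a gene counting where any of its entries held the letters. The GC box (GGGCGG, either strand) was found in 4 of 34 (11.8%, all genes 46.2%), the AP-2 site (GCCNNNGGC, its own reverse complement) in 5 (14.7%, all genes 23.0%), and the AP-1 site (TGANTCA, likewise) in none (all genes 8.06%). A match is a description of letters only. The 120 bases before the start are shown for 3 expressed keratins with contrasting levels, KRT10 (chr17:40822615-40822734, minus strand), even across lines, KRT34 (chr17:41382307-41382426, minus strand), highest in SKUT1, and KRT8 (chr12:52926470-52926589, minus strand), high in SKLMS1 and SKN. Capitals mark the TATA box, which the listed KRT8 entry lacks in these letters. A gene can have other starts than the listed one, and which start these lines used was not tested.
KRT10: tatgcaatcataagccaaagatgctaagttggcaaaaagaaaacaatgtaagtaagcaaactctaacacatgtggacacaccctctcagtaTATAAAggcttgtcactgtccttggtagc
KRT34: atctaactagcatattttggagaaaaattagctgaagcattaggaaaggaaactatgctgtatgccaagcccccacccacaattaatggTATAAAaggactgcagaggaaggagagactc
KRT8: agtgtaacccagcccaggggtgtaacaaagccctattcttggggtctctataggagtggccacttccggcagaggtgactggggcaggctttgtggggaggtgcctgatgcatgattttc

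Genes that anchor keratin filaments did not share 1 pattern, but the desmosomal plakin was highest in SKUT1. DSP, desmoplakin, which ties keratins to desmosomes, was 0.820 (RKN), 10.9 (SKLMS1), 0.260 (SKN) and 201 (SKUT1). PLEC, plectin, which links filaments to hemidesmosomes and other structures, was 13.5, 58.8, 64.9 and 67.4. RKN, the line with the least keratin, was also lowest for PLEC and for PERP, a desmosomal membrane protein (1.73, 30.6, 26.5 and 38.4). ITGA6, an integrin chain of hemidesmosomes, was 86.0 in SKN, 16.5 in SKUT1 and at most 0.758 elsewhere, and COL17A1 was 8.67 in RKN. Of the 20 anchor genes, 5 were at least 2-fold above the mean of the other lines in SKUT1 and 3 below, the median being 0.17 higher on the log2(FPKM + 1) scale (all genes 10.4% above, 7.6% below and a median of 0.00). The counts above and below were 2 and 5 in RKN (all genes 6.72% and 9.66%), 3 and 2 in SKLMS1 (all genes 6.24% and 5.72%) and 4 and 1 in SKN (all genes 5.8% and 6.29%).

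Of 16 other intermediate filament genes, 4 were at least 2-fold above the mean of the other lines in SKUT1 and 2 below (all genes 10.4% and 7.6%). The counts were 5 and 2 in SKLMS1 (all genes 6.24% and 5.72%), 3 and 3 in RKN (all genes 6.72% and 9.66%) and 0 and 3 in SKN (all genes 5.8% and 6.29%). SYNC, a muscle filament-binding protein, was 0.602 (RKN), 19.6 (SKLMS1), 8.62 (SKN) and 64.3 (SKUT1). NEFM, a neurofilament chain, was 12.3 in SKUT1 and at most 0.0422 elsewhere, INA was 17 in RKN and 10.2 in SKLMS1, and the lamin gene LMNB1 was 11.5 in SKUT1 against 71.6 to 153. DES, desmin, the filament of muscle, was 1.10 (RKN), 0.191 (SKLMS1), 0.347 (SKN) and 0.660 (SKUT1), below KRT10 and KRT18 in every line.

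Defining markers of epithelium were low beside the keratins. EPCAM, the epithelial adhesion molecule, was 0.372 (RKN), 1.80 (SKLMS1), 0.208 (SKN) and 0.432 (SKUT1). CDH1, E-cadherin, was 0.0450, 0.936, 0.0683 and 1.20. TP63, the regulator of basal epithelium that KRT14 usually accompanies, was 0.351 in RKN, 0.00931 in SKUT1 and listed at 0 in SKLMS1 and SKN. In SKUT1 the line with the most KRT14 thus had neither KRT5 nor TP63 at a level of 1.

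Some other epithelial genes were read at higher levels. Of 21 epithelial junction and surface genes, 10 were at 1 or more in SKLMS1 (all genes 49.8%) and 8 in RKN (all genes 48.6%). The counts were 3 in SKN (all genes 48.7%) and 4 in SKUT1 (all genes 48.9%). Summed FPKM was 1150, 51.3, 137 and 20.8 in SKLMS1, RKN, SKN and SKUT1. In SKLMS1 7 were at least 2-fold above the mean of the other lines and 1 below, the median being 0.44 higher (all genes 6.24%, 5.72% and 0.00). In RKN 4 were above and 3 below (all genes 6.72% and 9.66%), and with equal column sums 7 were above in RKN and 8 in SKLMS1. In SKN 2 were above and 3 below, with a median of -0.45 (all genes 5.8%, 6.29% and 0.00). In SKUT1 1 was above and 5 below, with a median of -0.42 (all genes 10.4%, 7.6% and 0.00). With equal column sums, where the added 1 also weighed less, 6 were below in SKN and 7 in SKUT1. CD24, a surface glycoprotein, made up 1079 of the SKLMS1 sum, and AP1M2, an epithelial sorting adaptor, was 30.5 in SKLMS1 and at most 3.57 elsewhere. ELF3, an epithelial transcription factor gene, was 19.7 in SKLMS1 and at most 0.182 elsewhere. CD24, AP1M2 and ELF3 shared with KRT80 their highest value in SKLMS1, and their part in the keratin levels was not tested.

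CLDN1, a tight junction gene, was 109 in SKN and at most 13.9 elsewhere, TFAP2C was 28.9 in SKN, SPINT1 was 14.9 in RKN, and KLF4 was 59.5 in SKUT1. ELF3, TFAP2C and KLF4 are among 20 epithelial transcription and splicing factor genes, of which 8 reached 1 in some line (13713 of all 23577 genes did). At least 2-fold above and below the mean of the other lines, RKN had 1 and 3 of them (all genes 6.72% and 9.66%). SKLMS1 had 4 and 1 (all genes 6.24% and 5.72%), and SKN 2 and 4 (all genes 5.8% and 6.29%). SKUT1 had 1 and 5 (all genes 10.4% and 7.6%). Of 18 cornified envelope genes, between 9 and 12 were listed at 0 in each line. An FPKM of 1 was reached by 6 of them, and those of widest range were CSTA (32.8 in SKUT1), CNFN (24.3 in RKN), PI3 (12.8 in SKN) and FLG (8.48 in SKLMS1). On the same 2-fold measure, 3 of the 18 were above and 3 below in RKN, and 1 and 2 in SKLMS1. In SKN the counts were 1 and 4, and in SKUT1 1 and 3, beside the same all-gene shares. Mesothelium, another keratin-bearing tissue, was represented by 9 markers. Of these 1 was at 1 or more in RKN and in SKLMS1 and 3 in SKN and in SKUT1 (all genes 48.6% to 49.8%). Their summed FPKM was 4.79, 22.3, 56.3 and 16.7 in RKN, SKLMS1, SKN and SKUT1. In SKN 4 of the 9 were listed at 0, and in each other line 3. Against the mean, 1 was above and 3 below in RKN and in SKLMS1. The counts were 3 and 1 in SKN and 2 and 2 in SKUT1, again beside those all-gene shares. BNC1 was 40.1 in SKN, LRRN4 20.2 in SKLMS1 and 10.6 in SKN, PRG4 12.4 in SKUT1 and WT1 4.67 in RKN and SKN.

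The labelled lineage was checked with 12 smooth muscle markers. They numbered 6 at 1 or more (RKN), 8 (SKLMS1), 5 (SKN) and 11 (SKUT1), beside 48.6%, 49.8%, 48.7% and 48.9% of all genes. They summed to 206, 913, 110 and 6373. In SKUT1 9 were at least 2-fold above the mean of the other lines and none below (all genes 10.4% and 7.6%). In SKLMS1 4 were above and 1 below (all genes 6.24% and 5.72%), and none were above and 7 below both in RKN (all genes 6.72% and 9.66%) and in SKN (all genes 5.8% and 6.29%). TAGLN, transgelin, was 45.5, 531, 5.82 and 3816, ACTA2, smooth muscle actin, 84.7, 127, 1.37 and 1085, CNN1, calponin, 2.45, 29.6, 0.228 and 86.4, and MYLK, myosin light chain kinase, 0.805, 65.7, 11.8 and 31.5. SKUT1 was highest for TAGLN, ACTA2 and CNN1 and SKLMS1 for MYLK. Any relation of these levels to the keratins was not tested.

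**Figure D5:**
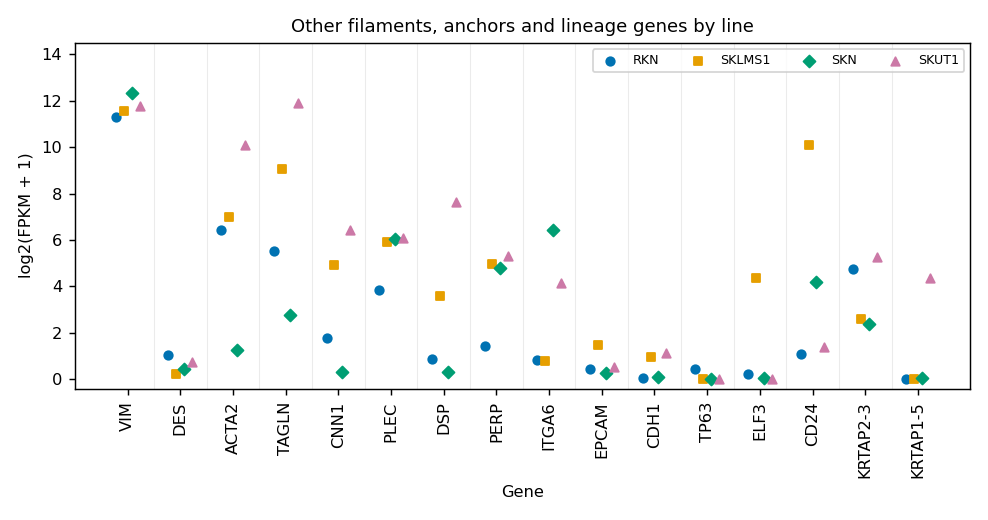
Log2(FPKM + 1) of other filament genes (VIM, DES), smooth muscle genes (ACTA2, TAGLN, CNN1), anchors (PLEC, DSP, PERP, ITGA6), epithelial genes (EPCAM, CDH1, TP63, ELF3, CD24) and 2 keratin-associated protein genes, with 1 point per line. VIM is high in all lines, EPCAM, CDH1 and TP63 are at most 1.80 FPKM in all, and DSP is highest in SKUT1 at 201.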

How the data were processed

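Poly(A) RNA was sequenced as single-end reads of 75 bp from TruSeq stranded libraries, per the labels' protocols. STAR, Cufflinks and the build hg19 are named, per the submitters' processing notes; versions, annotation, strand setting and filters were not given in the sources used here. FPKM values per gene symbol were made by the authors and deposited as 1 table of 23610 rows. Left out were 28 rows whose symbol had become a date number and 5 with spreadsheet errors, none of them a keratin. Each line was 1 sample, so sizes were compared as log2(FPKM + 1) over all genes with no filter, without any test. Lists were read as differences from the mean of the other 3 lines. All 17 keratins reaching 1 were named, and from each other list up to 4 genes of widest range plus VIM, DES, CDH1, EPCAM, TP63, PLEC and DSP; 1 gene so chosen is not reported here. The keratins and the lists were chosen with earlier results of these data known. Shared windows came from GENCODE release 29 transcripts, gene order and promoters from RefSeq (GRCh38.p14); promoters of KRT7, KRT14, KRT16, KRT17, KRT18, KRT19, KRT80, KRT81 and 14 further members were not matched. The function calling a line highest or lowest was run on simulated data, with shifts larger than the 4-fold rule in well-expressed genes only. The function for pairs of lines was not. Coordinates printed are GRCh38, from those annotations. Alternatives changed the pseudocount, scaling, filter, fold and lines used, and for the lists took the median of the other lines in place of the mean. Computations used Python 3.11.15 with pandas 2.3.3.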

Additional observations from a re-analysis of the deposited data

How the results depend on the processing

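No paired analysis was possible because each line had 1 library. A count was held to have moved beyond 1.5 times its value. With a pseudocount of 0.1, keratins 4-fold apart numbered 12 for RKN and SKN, 13 for RKN and SKUT1, 12 for SKLMS1 and SKN, 14 for SKLMS1 and SKUT1 and 15 for SKN and SKUT1; 2 were highest in SKLMS1 and 3 in SKN, 2 lowest in SKN, 3 in RKN and 1 in SKUT1. With a pseudocount of 5, they numbered 2 for RKN and SKLMS1, 4 for RKN and SKN and 5 for RKN and SKUT1, and RKN had 0 highest and 0 lowest. Rescaling columns to equal sums gave 7 for SKLMS1 and SKN, 2 highest in SKN and 1 lowest in SKUT1. It shifted the median gene from -0.04 to 0.24 in RKN and from -0.03 to -0.31 in SKUT1. This setting also raised every column above its own sum, so it acted partly as a smaller pseudocount. The 2 effects were not separated. Quantile normalization gave 2 highest in SKN. The 8-fold rule left 3 for RKN and SKLMS1, 2 for SKLMS1 and SKN and 5 for SKLMS1 and SKUT1, with 0 lowest in RKN, 0 highest in SKLMS1 and 3 in SKUT1. Leaving out comparison lines gave 0 to 1 lowest in SKLMS1 (1 without RKN), 1 to 2 highest in SKLMS1 (2 without SKN), 1 to 2 highest in SKN (2 without SKLMS1 or SKUT1) and 0 to 1 lowest in SKUT1 (1 without RKN or SKLMS1). A filter at an FPKM of 1 could remove no call, since every 4-fold call needs a higher level than that. The filter at 5 gave 6 for RKN and SKN, 7 for each pair with SKUT1 and 4 highest in SKUT1, all within 1.5 times. At a threshold of 5, RKN had 5 keratins, SKLMS1 6 and SKUT1 8. The type I to type II ratio without the leading gene of each type was 1.05 (SKLMS1), 0.178 (SKN) and 31.8 (SKUT1); with simple-epithelial keratins alone it was 23.3 in RKN, 1.05 in SKN and 1.85 in SKUT1. Chosen after seeing the data, leaving out hair and nail keratins gave 14.7 in RKN and 1.08 in SKN, and leaving out KRT14 gave 2.40 in SKUT1; leaving out KRT10 kept every ratio within 1.5 times. Of the gene lists, a pseudocount of 0.1 gave 6 anchors lower in SKUT1, 3 lower in SKN, and 5 higher and 4 lower in SKLMS1. Junction genes lower then numbered 13 in SKN, 11 in SKUT1, 5 in RKN and 3 in SKLMS1. Those higher numbered 11 in SKLMS1, 9 in RKN and 3 in SKUT1. Equal column sums also gave 3 junction genes lower in SKLMS1. The other-filament list had 5 higher in RKN under either of these settings and 5 lower in SKN with a pseudocount of 0.1. Smooth muscle markers lower in SKLMS1 numbered 3 with that pseudocount and 2 with equal sums. The pseudocount of 0.1 also gave 4 epithelial factor genes higher in SKN, and 6 mesothelial markers lower in RKN. Cornified genes higher then numbered 5 in RKN, 4 in SKLMS1 and 3 in SKUT1. With the median of the other lines in place of the mean, the lower counts of the factor and cornified lists fell, as given above. Smaller moves of the lists are not printed. The cause of these moves was not tested. Depth per library is read only relative to RKN, and only if steps are reads and columns scale with read number. Values of a few steps thus cannot be ordered.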

Other observations

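Keratin-associated proteins, which cross-link hair keratins, were listed with 91 genes, of which 73 were at 0 in all 4 lines and 4 reached an FPKM of 1. Over all genes, 13713 of 23577 reached that level in some line. KRTAP2-3 was 25.9 (RKN), 5.13 (SKLMS1), 4.15 (SKN) and 37.3 (SKUT1). KRTAP1-5 was 19.5 in SKUT1, 0.0406 in SKN and listed at 0 in the others, and so was highest in the same line as the hair keratin KRT34. KRTAP3-2 (7.66) and KRTAP3-1 (2.61) were read in RKN and listed at 0 elsewhere. Sequence shared within this family was not measured.

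The table also lists 6 numbered keratin pseudogenes outside the symbol rule. KRT16P1, KRT16P2 and KRT16P3 were at 0 in all lines, SKUT1 included, where KRT16 was 27.4. KRT8P41 was at most 0.121, KRT18P55 at most 0.102 and KRT19P2 0.0881 in SKLMS1.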
